A study of Mus musculus with 8 samples.

Results

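The 9 genes described here encode proteins that define B lymphocytes: the transcription factors Ebf1 and Pax5, the antigen receptor subunits Cd79a and Cd79b, and the surface or adaptor proteins Ms4a1, Bank1, Cr2, Fcer2a and Cd22. They were measured in RNA from mouse spleen natural killer (NK) cells, which are innate cytotoxic lymphocytes and not B cells. A probe was assigned to a gene where the RefSeq accession printed for it on the array belongs to that gene, which gave 12 probes for the 9 genes, of 20284 genes named in this way on the array. The choice of genes used no measured value, although earlier results of these data were known when it was made.

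NK cells were enriched magnetically from spleens and then sorted by fluorescence of a ChAT-eGFP reporter, a green fluorescent protein that marks cells expressing choline acetyltransferase, the enzyme that makes acetylcholine. Each sample pooled sorted cells from 2 to 4 mice. The ChAT_positive group held 4 pools with the reporter and the ChAT_negative group 4 pools without it, and the labels name no other allele or agent. Strain, age and the markers of the magnetic step are not given in the sources used here. Nor do the labels say if pools had mice in common, so the tests here see only the spread among these pools, part of which may be technical.

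B cells are the lymphocytes that make antibody, and they form much of the white pulp of the spleen. EBF1 switches on the B lineage program and PAX5 then holds it in place and represses the genes of other lineages. The antigen receptor signals through the CD79A and CD79B chains, the complement receptor CR2 (CD21) lowers its threshold, and CD22 and the adaptor BANK1 tune its signal. MS4A1 (CD20) and FCER2A (CD23, the low-affinity IgE receptor) are surface proteins of mature B cells. Splenic B cells are among the lymphocytes in which ChAT-eGFP expression is known.

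Values are log2 of the background-subtracted probe intensity minus the 75th percentile of the same array, so 0 is the level of a fairly bright probe and a difference of 1 is a doubling of signal. Levels of different probes cannot be set against each other. A gene was represented by its brightest probe and was called where the adjusted p of limma (a moderated linear model, Benjamini-Hochberg over all 13608 genes tested) was under 0.05. Between 50.2% and 63.2% of spots were well above background per array, with the lowest share in ChAT_positive replicate 3, and 0 spots were saturated. Chat itself had a log2 signal of 3.75 ± 0.25 in ChAT_positive and 2.65 ± 0.34 in ChAT_negative pools (SD, n = 4 each), or 2.15-fold more (95% interval 1.57 to 2.94, limma adjusted p = 0.0201). That call was lost without ChAT_positive replicate 3 or ChAT_negative replicate 4, with an adjusted p of up to 0.0648. The 4 arrays of each group shared a slide and a scan date, and the groups differed in the slide, the scan date or both. That difference and the presence of the reporter cannot be told apart in what follows.

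B cell identity transcripts were present in both groups and 4 of the 9 genes, Pax5, Bank1, Ebf1 and Ms4a1, were higher in ChAT_positive pools. Each of the 12 probes was well above background on every one of the 8 arrays. Of the 9 genes, 44.4% were called higher and 0 lower, where 2.81% of all genes tested were called higher, 3.15% lower and 5.95% in either direction. Pax5, Bank1 and Ebf1 rose at least 2-fold, which 0.698% of all genes did with a call. Over all genes 382 were higher and 428 lower, a split that became 212 and 119 when arrays were scaled to their median instead, which moved the median of all genes to 0.24. The median log2 difference of the 9 genes was 0.84, and that of all genes tested was 0.025. For 5 genes every ChAT_positive array lay above every ChAT_negative array, which was so for 9.34% of all genes tested, and for 0 genes the reverse held, against 6.15% of all genes. In these bulk samples, more B cells in a pool and more RNA of these genes per cell cannot be told apart.

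**Figure D1:**
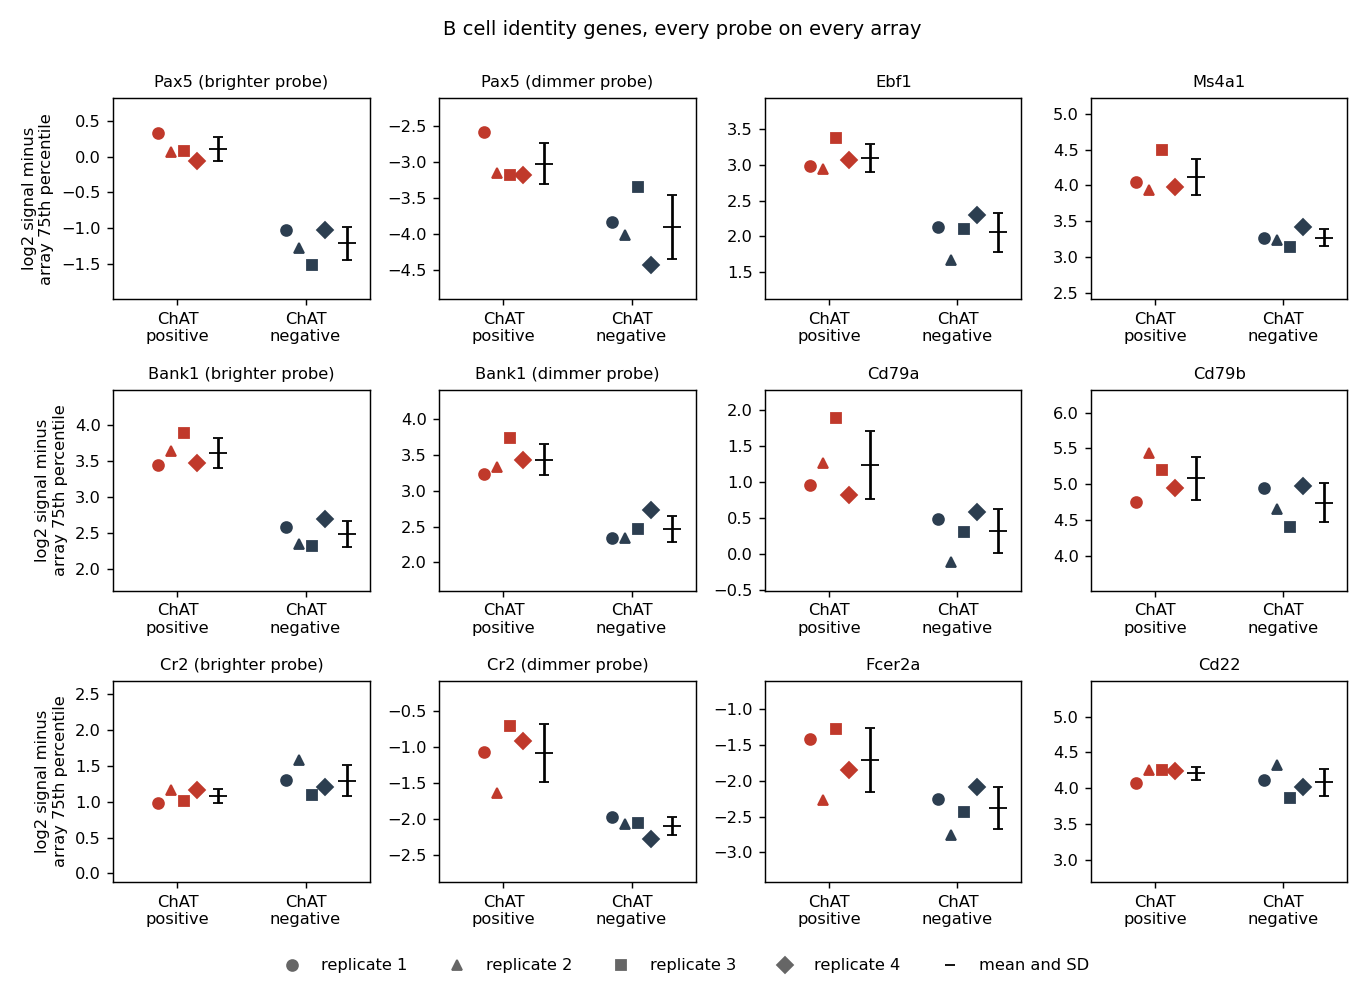
Log2 signal minus the array's 75th percentile for each of the 12 probes, with 1 marker per array, its shape giving the replicate number, and black bars for the mean and SD of 4 arrays. Panels have their own zero but a common span; for the brighter Pax5 probe, both Bank1 probes, Ebf1 and Ms4a1 the groups are apart, while the brighter Cr2 probe and Cd22 overlap.

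Of the transcription factors, Pax5 had the largest difference among the 9 genes. Its brighter probe read 0.33, 0.064, 0.076 and -0.060 in ChAT_positive replicates 1 to 4 and -1.02, -1.28, -1.51 and -1.02 in ChAT_negative replicates 1 to 4. No array of one group reached the other. The log2 difference was 1.31 (SE 0.15), or 2.48-fold with a 95% interval of 1.96 to 3.14, with a limma adjusted p of 0.0039. Only 63 genes of the 13608 had a larger rise. The dimmer Pax5 probe carries the same accession and read -2.59, -3.15, -3.18 and -3.18 in ChAT_positive and -3.83, -4.01, -3.35 and -4.43 in ChAT_negative pools. Its groups were also apart, by 0.89 (SE 0.24), but it was not called when all 32087 probes kept were tested (limma adjusted p = 0.0840).

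Ebf1 had 1 probe, which read 2.99, 2.94, 3.37 and 3.06 in ChAT_positive and 2.13, 1.68, 2.11 and 2.30 in ChAT_negative pools. The lowest ChAT_positive array stood above the highest ChAT_negative one. Ebf1 rose by 1.03 (SE 0.17, limma adjusted p = 0.0132), which is 2.05-fold with a 95% interval of 1.58 to 2.65.

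Bank1, the adaptor of antigen receptor signalling, was read by a pair of probes that behaved alike. The brighter one read 3.44, 3.63, 3.89 and 3.47 in ChAT_positive and 2.58, 2.35, 2.31 and 2.69 in ChAT_negative pools. ChAT_positive replicate 3 was highest and the groups were apart. Bank1 rose by 1.12 (SE 0.15, limma adjusted p = 0.00673). The dimmer probe read 3.23, 3.33, 3.73 and 3.42 against 2.34, 2.34, 2.46 and 2.72, and it was called as well, with a rise of 0.96 (SE 0.16, limma adjusted p = 0.0227 over probes, where 1.46% of probes were called higher). Across the 8 arrays the pair of Bank1 probes had a correlation of 0.974, given as a description because the arrays share the group difference.

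Ms4a1, which encodes CD20, read 4.05, 3.94, 4.49 and 3.98 in ChAT_positive and 3.27, 3.24, 3.14 and 3.43 in ChAT_negative pools. The ChAT_negative arrays lay close together, and ChAT_positive replicate 3 stood above the rest. The rise was 0.84 (SE 0.15, limma adjusted p = 0.0196), or 1.79-fold with a 95% interval of 1.42 to 2.26.

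**Figure D2:**
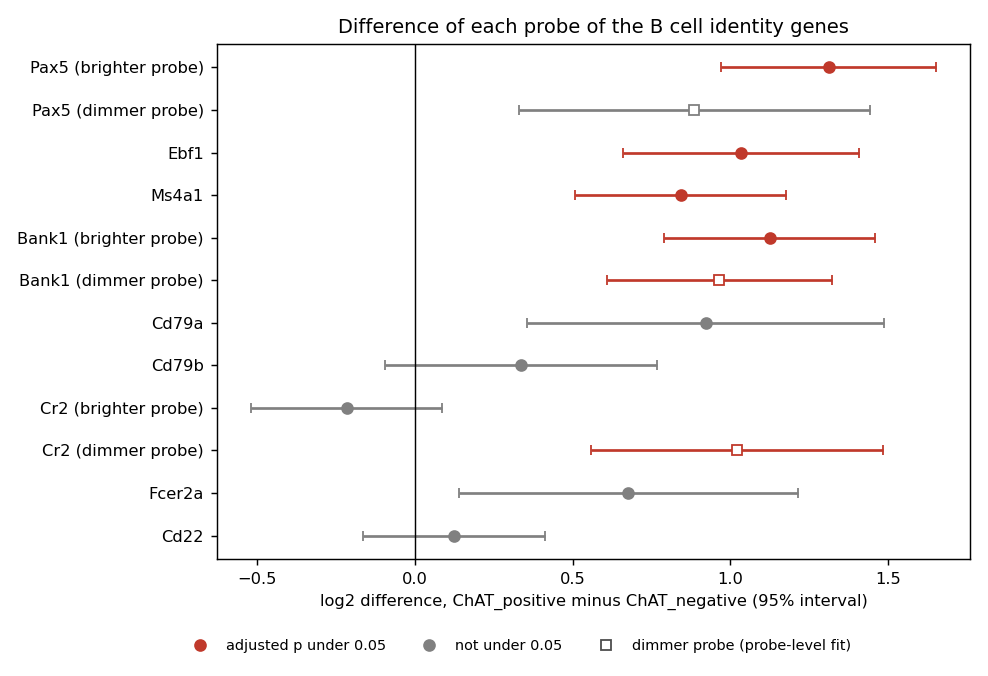
Log2 difference, ChAT_positive minus ChAT_negative, with its 95% interval for each probe. Filled circles stand for the gene in the fit over genes, open squares are the dimmer probes in the fit over probes, and red marks an adjusted p under 0.05. The Cr2 probes lie on opposite sides of 0, at -0.22 and 1.02.

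The subunits of the antigen receptor did not pass the test. Cd79a read 0.96, 1.26, 1.89 and 0.82 in ChAT_positive and 0.48, -0.11, 0.31 and 0.58 in ChAT_negative pools. Its groups did not overlap, but the ChAT_positive arrays spread widely (SD 0.47, n = 4), and the difference of 0.92 (SE 0.25) had a limma adjusted p of 0.0636. It was called with a trended and robust variance (0.0337) or when only probes above background on all 8 arrays were tested (0.0456). Cd79b read 4.75, 5.44, 5.21 and 4.94 against 4.95, 4.66, 4.40 and 4.97, so the groups overlapped. Its difference was 0.34 (SE 0.19, 95% interval -0.093 to 0.77, limma adjusted p = 0.310). That interval includes 0, and its upper bound lies below the estimated rises of the 4 called genes. It overlaps the 95% interval of Ms4a1, 0.51 to 1.18.

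Cr2, which encodes the complement receptor CD21, gave opposite readings with its probes, which carry the same accession. The mouse gene yields more than one receptor through alternative splicing, and which transcripts each probe reads was not tested here. The brighter probe read 0.98, 1.17, 1.01 and 1.16 in ChAT_positive and 1.30, 1.58, 1.09 and 1.21 in ChAT_negative pools, with overlapping groups. Its difference was -0.22 (SE 0.13, limma adjusted p = 0.356), and it was 0.0020 with arrays scaled to their median. The dimmer probe read -1.06, -1.64, -0.70 and -0.91 against -1.97, -2.07, -2.06 and -2.28, with every ChAT_positive array above every ChAT_negative one. It rose by 1.02 (SE 0.20, limma adjusted p = 0.0374 over probes), close to the rises of Ebf1 and Bank1.

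That contrast between the Cr2 probes was examined after the values were seen. Within each array the brighter probe exceeded the dimmer by 2.04, 2.80, 1.71 and 2.06 in ChAT_positive pools and by 3.27, 3.66, 3.15 and 3.48 in ChAT_negative pools. The gap was thus smaller on every ChAT_positive array, with means of 2.15 and 3.39 in the order given and p = 0.0286 in a two-sided exact permutation test and 0.0857 after adjustment over the 3 genes with a pair of probes. A p of 0.0286 is the smallest that 4 against 4 arrays allow. This gap does not depend on how arrays are scaled. For Pax5 and Bank1 the gaps between probes overlapped between groups (exact p = 0.286 and 0.200). The dimmer Cr2 call was lost without any of 7 single arrays and held without ChAT_positive replicate 2. Its highest adjusted p was 0.107, without ChAT_negative replicate 4.

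Fcer2a, which encodes CD23, read -1.42, -2.27, -1.28 and -1.86 in ChAT_positive and -2.25, -2.76, -2.43 and -2.08 in ChAT_negative pools. ChAT_positive replicate 2 fell within the ChAT_negative range, and the difference of 0.68 (SE 0.24) had a limma adjusted p of 0.124. Cd22, the inhibitory lectin of the receptor complex, read 4.08, 4.25, 4.25 and 4.25 against 4.12, 4.32, 3.87 and 4.02. Its difference was 0.13 (SE 0.13, 95% interval -0.16 to 0.41, limma adjusted p = 0.582), and its sign turned, to -0.055, with normexp background correction. As for Cd79b, the upper bounds for Cd22 and for the brighter Cr2 probe (95% interval -0.52 to 0.088) lay below the estimated rises of the 4 called genes.

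The genes that did and did not rise were set against each other within arrays, as differences of log2 values that do not depend on scaling. Of 36 pairs, 15 reached the smallest two-sided exact permutation p, 0.0286, which became 0.0686 after adjustment over the pairs, so no pair passed. Each of Pax5, Ebf1, Ms4a1, Cd79a and Bank1 reached that unadjusted p against both Cr2 and Cd22, which makes 10 of the 15. Cr2 stands here for its brighter probe. The dimmer Cr2 probe, which rose by 1.02, was not set against the other genes on its own. The largest gaps were between Pax5 and Cr2, at 1.53, and between Bank1 and Cr2, at 1.34, each for the brighter Cr2 probe. Between neighbours in the order of rises the gaps were small: Pax5 exceeded Bank1 by 0.19 (exact p = 0.286) and Bank1 exceeded Ebf1 by 0.090 (exact p = 0.429). Ms4a1 rose by 0.28 less than Bank1 on the log2 scale, with non-overlapping gaps. With the probes of a gene averaged, 10 of the 36 pairs had an exact p under 0.05 and again none passed after adjustment.

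ChAT_positive replicate 3 was the highest array for 5 of the 9 genes, Ebf1, Ms4a1, Cd79a, Bank1 and Fcer2a. Averaged over the 9 genes after centring each gene, the arrays stood at 0.27, 0.30, 0.57 and 0.23 in ChAT_positive and at -0.24, -0.45, -0.49 and -0.18 in ChAT_negative pools. This array also had the lowest share of spots well above background, 50.2%. Without it the 4 calls held, with differences of 1.32 for Pax5, 1.03 for Bank1, 0.94 for Ebf1 and 0.72 for Ms4a1.

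**Figure D3:**
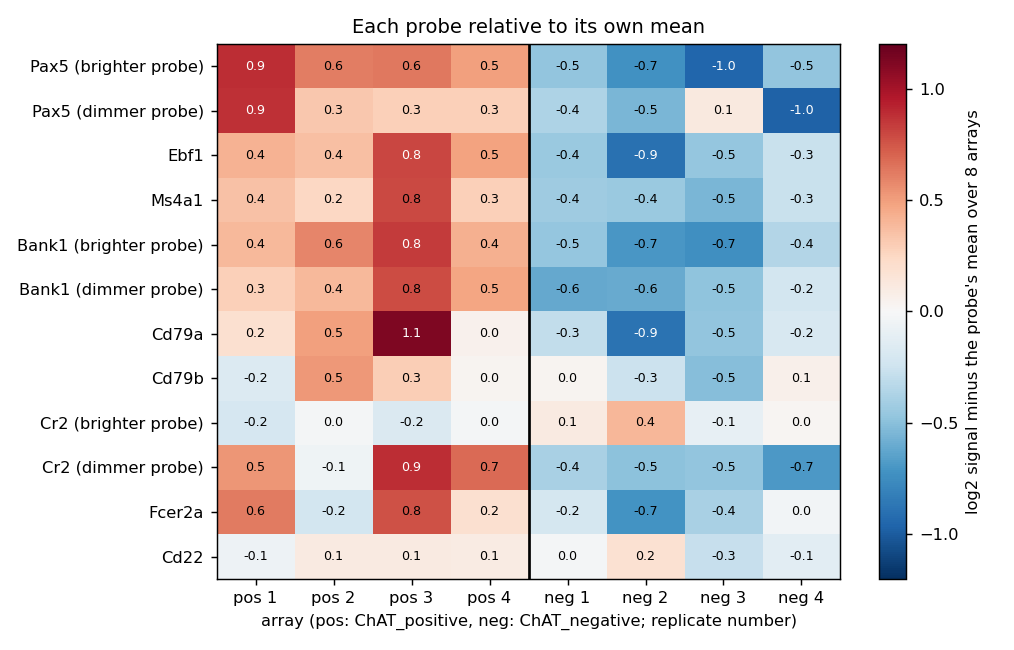
Log2 signal of each probe minus that probe's mean over 8 arrays, with ChAT_positive arrays left of the line and ChAT_negative arrays right of it; red is above and blue below the mean, and the number in a cell is its value. Most rows are red on the left, strongest in ChAT_positive replicate 3 for Cd79a, while the brighter Cr2 probe and Cd22 are pale throughout.

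The 4 calls held whichever single array was left out, with adjusted p of up to 0.0494 (Ms4a1, without ChAT_negative replicate 3). Without both arrays numbered 3, which leaves 3 against 3, only Pax5 remained called (limma adjusted p = 0.0449), where 0.154% of genes were called higher. Bank1, Ebf1 and Ms4a1 then had differences of 0.97, 0.96 and 0.67 with adjusted p of 0.0630, 0.0910 and 0.0891.

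Promoter sequences are shown for a called and an uncalled gene because both hold the same core letters of the motif that EBF1 recognises. Of the 9 genes, 7 had 10 start sites in RefSeq's GRCm38.p6 promoter table, and Ms4a1 and Cd79b had no entry. The 250 bases before each start were searched on both strands for CCCNNGGG, which reads the same on both strands. Matches were found for Bank1 and Cd22, and 11.8% of all 32851 windows hold one. A longer form, with a T before the core and an A after it, overlaps the core and among these genes was found for Cd22 alone, against 0.779% of all windows. The octamer ATGCAAAT, the motif of OCT factors, was in 0 of the 10 windows and in 1.60% of all. In the lines that follow, capitals mark the CCCNNGGG match, at positions -21 to -14 for Bank1 and -48 to -41 for Cd22, counted from -1 just before the start. The Bank1 window is chr3:136326067-136326316 on the minus strand and the Cd22 window chr7:30879029-30879278 on the minus strand, both printed 5′ to 3′.
Bank1: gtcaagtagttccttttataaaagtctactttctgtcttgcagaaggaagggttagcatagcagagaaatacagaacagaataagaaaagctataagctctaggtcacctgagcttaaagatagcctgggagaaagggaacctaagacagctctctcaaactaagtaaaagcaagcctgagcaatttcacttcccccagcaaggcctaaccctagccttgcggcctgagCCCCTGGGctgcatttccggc
Cd22: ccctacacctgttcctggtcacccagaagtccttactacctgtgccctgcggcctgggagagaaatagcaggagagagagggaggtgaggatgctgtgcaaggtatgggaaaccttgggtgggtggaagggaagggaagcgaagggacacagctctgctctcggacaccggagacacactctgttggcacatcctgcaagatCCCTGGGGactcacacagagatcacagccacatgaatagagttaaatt
Bank1 rose by 1.12, and Cd22 differed by 0.13 and did not pass the test. Whether EBF1 binds either match, and any part of it in these differences, was not tested.

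Beyond the 9 genes, 107 other B cell genes were listed by stage and role, of which 87 were tested, 14 were called higher (16.1%, against 2.81% of all genes) and 2 lower. In the list of receptor signalling genes, 6 of 18 rose and 0 fell, with a median difference of 0.33. Siglecg, an inhibitory sialic acid receptor of B cells, rose by 1.15 (SE 0.19, limma adjusted p = 0.0144). Blk, a Src family kinase of the receptor, rose by 1.01 and the inhibitory Fc receptor gene Fcgr2b by 0.74. Several kinases and adaptors of this list are also made by NK cells, among them Syk, Plcg2 and Vav1, which were not called, with differences of 0.46, 0.10 and -0.05. For Syk every ChAT_positive array lay above every ChAT_negative one, as for 9.34% of all genes. The other uncalled genes of the list were Cd72, Blnk, Prkcb, Pik3ap1, Ptpn6, Cd81, Dapp1, Inpp5d and Pik3cd. In that order they differed by 0.59, 0.34, 0.32, 0.28, 0.23, 0.19, 0.081, -0.17 and -0.29, and the groups of Cd72 did not overlap either. Being uncalled was thus not confined to the genes named as shared with NK cells. The kinase genes Btk and Lyn of the same list were called, with rises of 1.19 and 0.76 (limma adjusted p = 0.0384 and 0.0303). Both calls were lost without ChAT_positive replicate 3 and without ChAT_negative replicate 3 or 4.

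Of 14 transcription factors, 3 rose and 0 fell, with a median of 0.39. Bcl11a, a regulator of lymphoid development, rose by 0.68, Pou2f2, which encodes OCT-2, by 0.67 and Bach2, a repressor of plasma cell differentiation, by 0.67. Among 21 surface and survival genes 4 rose and 0 fell, with a median of 0.44. They were Fcrl1, an Fc receptor-like protein (0.97), Ralgps2, an exchange factor for Ral GTPases (0.80), the BAFF receptor gene Tnfrsf13c (0.79) and the chemokine receptor gene Ccr6 (0.74). Where Siglecg, Bcl11a, Pou2f2, Bach2 or Tnfrsf13c had a dimmer probe it differed in the same direction, by 1.34, 0.95, 1.41, 0.79 and 1.36.

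The lists of B cell subsets and stages were not uniform. Fcrl5, a receptor of marginal zone and B-1 cells, rose by 1.09 (SE 0.15, limma adjusted p = 0.0073), and it was the 1 gene called of 12 in its list, whose median was -0.066. Of 5 germinal centre genes tested 0 were called by limma, and at an unadjusted p under 0.05 there were 3 with a positive and 1 with a negative difference, where 12.9% of all genes tested were higher and 11.9% lower at that threshold. Bcl6, the transcription factor of these cells, had a difference of 0.52 and Fas, a death receptor, 0.59, with limma adjusted p of 0.0846 and 0.0860. Among 10 plasma cell genes 1 fell, Prdm1, which encodes BLIMP-1 and is also expressed by NK cells, by 1.28 (SE 0.23, limma adjusted p = 0.0197). Of 7 precursor B cell genes tested 1 fell, Dntt, the terminal transferase of antigen receptor rearrangement, by 2.14, though 1 of the 4 ChAT_positive arrays had no signal well above background for it. Rag1, Rag2 and Igll1 were well above background on 0 of 8 arrays. No probe was named here for the 11 immunoglobulin constant genes listed.

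The calls outside the 9 genes depended more on single arrays. The 14 genes called higher became 8 without ChAT_positive replicate 1, 5 when either ChAT_positive replicate 4 or ChAT_negative replicate 2 was left out, and 2 when the same was done with ChAT_positive replicate 3 or with replicate 3 or 4 of the ChAT_negative pools. Siglecg, Fcrl5, Prdm1 and Dntt were called whichever single array was left out. Each of Fcgr2b, Blk, Bcl11a, Pou2f2, Bach2, Ralgps2, Fcrl1, Tnfrsf13c and Ccr6 lost its call when ChAT_positive replicate 3 was left out, likewise for ChAT_negative replicates 3 and 4, and for up to 4 other arrays, with a highest adjusted p of 0.101 for Bach2 (without ChAT_positive replicate 3).

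**Figure D4:**
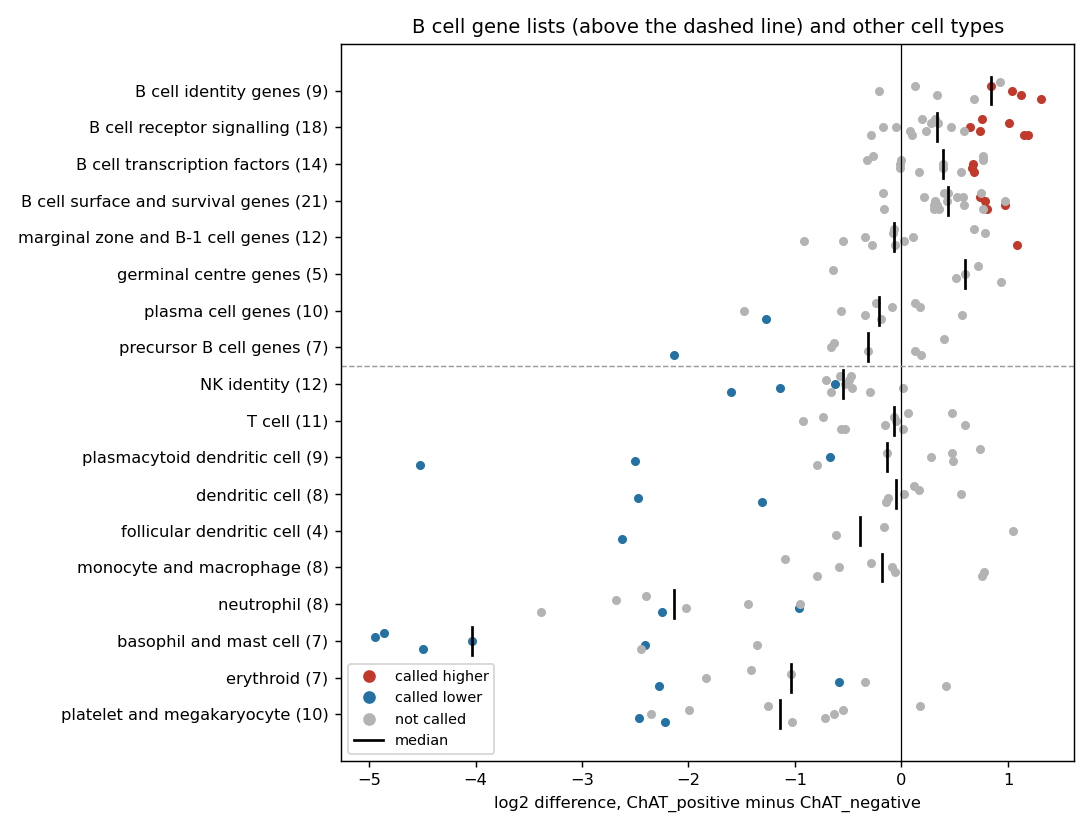
Log2 difference, ChAT_positive minus ChAT_negative, of each tested gene of the B cell lists (above the dashed line) and of lists for other cell types (below it), with the number tested in brackets and a black bar at the median. Red genes were called higher and blue genes lower, and the red genes all lie in B cell lists. Basophil and mast cell genes have the lowest median, -4.04, though not all of them were above background in ChAT_positive pools.

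Markers of the other cells that such a sort could hold were read in the same fit. Their counts stand against 2.81% of all genes called higher and 3.15% called lower, and at an unadjusted p under 0.05 against 12.9% and 11.9%. All 12 NK markers were well above background on each of the 8 arrays, 3 fell and 0 rose, and their median was -0.55. At an unadjusted p under 0.05, 9 of them were lower and 0 higher. Klrb1c, which encodes NK1.1, fell by 1.60. The summed linear signal of the NK markers relative to the array's 75th percentile was 139 to 210 in ChAT_positive and 213 to 258 in ChAT_negative pools. That of the 9 B cell identity genes was 84.6 to 111 and 57.8 to 74.3. No group overlapped the other in either sum, but the NK sums nearly met, at 210 on ChAT_positive replicate 2 and 213 on ChAT_negative replicate 3. All sums given here use the 75th percentile scaling alone. Median scaling moved the median difference of all genes from 0.025 to 0.24, and whether gaps between sums hold under it was not tested. Each sum here is led by the brightest probes of its list, which for the 9 genes include Cd79b and Cd22, neither of them called. Sums are compared between groups only, not between lists, and do not count cells. Of 11 T cell markers 0 were called by limma and 2 had an unadjusted p under 0.05, 1 in each direction, with summed signals of 18.5 to 33.0 and 19.9 to 29.9. Among 9 plasmacytoid dendritic cell markers, cells that share several genes with B cells, 0 were called higher by limma and 3 fell, with sums of 59.6 to 85.2 and 49.8 to 69.3; at an unadjusted p under 0.05 there were 3 higher and 4 lower. The 3 that fell were Klk1, Ccr9 and Lair1, with differences of -4.52, -2.50 and -0.67 (limma adjusted p = 0.000165, 0.00671 and 0.0217). Klk1 was well above background on ChAT_negative arrays alone. Among the uncalled markers, Tcf4, a transcription factor that B cells also express, had a difference of 0.48 (limma adjusted p = 0.0753). Bst2, an interferon-induced surface protein, had 0.74 (0.0786). For Tcf4 and for Bst2, every ChAT_positive array lay above every ChAT_negative one. Both were called higher with a trended and robust variance, and Tcf4 also with quantile normalization or array weights. Follicular dendritic cells also express Cr2. Of their 8 markers 4 were tested, 1 fell and 0 were called higher by limma. At an unadjusted p under 0.05, 1 was higher and 2 were lower, and Cxcl13 was well above background on 0 of 8 arrays. Their summed signal was 5.95 to 7.36 in ChAT_positive and 8.38 to 12.8 in ChAT_negative pools, without overlap. Monocyte and macrophage markers had 0 of 8 called by limma and, at an unadjusted p under 0.05, 1 higher and 2 lower. Their sums did not overlap either, at 10.97 to 13.96 and 15.10 to 18.36. Dendritic cell markers (2 of 8 lower) had sums of 25.4 to 34.3 and 23.0 to 34.7, and neutrophil markers (2 of 8 lower) 7.44 to 45.2 and 28.3 to 76.9, with overlap in both. Basophil and mast cell markers (5 of 7 lower) had sums of 0.891 to 3.79 and 9.11 to 43.3, and erythroid markers (2 of 7 lower) 14.7 to 17.1 and 20.6 to 31.3, lower on every ChAT_positive array. Platelet markers (2 of 10 lower) had sums of 3.367 to 8.930 and 7.803 to 23.78, which overlapped. In these 5 lists 0 genes were called higher by limma, and 1, a dendritic cell marker, was higher at an unadjusted p under 0.05. Lower at that threshold were 2 dendritic cell, 6 neutrophil, 7 basophil and mast cell, 3 erythroid and 5 platelet markers. Some basophil, dendritic and plasmacytoid dendritic cell markers were well above background on ChAT_negative arrays alone. With only probes above background on all 8 arrays, 3 of 4, 1 of 7 and 2 of 7 in these lists were called lower, against 455 of 12166 genes. The basophil and mast cell median was then -2.42. The part of these cell types in the differences of the B cell identity genes was not tested.

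Among the genes whose values ran most like the mean of the 9 over the 8 arrays were Elmod3 (Pearson r = 0.993), B9d1 (0.992), Plekho1 (0.988), Myo1c (0.987) and Plbd1 (0.986), given as a description over arrays that share slides and scaling. Plbd1 had a difference of 1.08 and the others between 0.56 and 0.71. A dimmer Myo1c probe differed by -0.34, the opposite direction. After the group means were taken out, the most alike were Blvrb (0.982), Mrpl45 (0.981), Ftsj1 (0.976), Zfp553 (0.975), Ube2d2a (0.970) and Elmod3 (0.969), and of these Elmod3 was the one called (limma adjusted p = 0.0389), a call lost when any single array was left out. Among the 9 genes themselves, correlation with the mean of the other 8 over 8 arrays was 0.990 for Bank1, 0.978 for Ms4a1, 0.952 for Ebf1 and 0.920 for Pax5. It was 0.908 for Cd79a, 0.783 for Fcer2a, 0.671 for Cd79b, 0.402 for Cd22 and -0.66 for the brighter Cr2 probe. These values share the group difference. With the group means taken out they were, in the same order, 0.960, 0.839, 0.662, 0.409, 0.772, 0.450, 0.497, -0.019 and -0.338.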

How the data were processed

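RNA of 8 pools (4 ChAT_positive, 4 ChAT_negative) was measured on 1-colour (Cy3) Agilent arrays, from 100 ng of total RNA amplified by in vitro transcription, per the labels' protocols. The deposited spot intensities come from Agilent Feature Extraction, version 11.5.1.1 per the file headers, and are background-subtracted within an array and not scaled between arrays. The authors' deposited value table holds log2 values of 31942 probes. Each column followed log2 of the processed intensity less that array's 75th percentile, with a median gap of at most -0.00655 in size, so it is not centred per gene, and its column medians lie between -0.72 and -0.63.

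Spots of a probe were averaged without control spots and without the 1344 values marked as outliers by the scanner software, unless all spots of the probe were so marked. Of 55681 probes, 26762 were named by an unversioned RefSeq accession in a GRCm38.p6 table. The array was annotated on an earlier assembly, so its positions are not used; the promoter windows have the RefSeq table's own GRCm38.p6 positions. The 32087 probes kept had a signal well above background on 4 or more of the 8 arrays, and the brightest probe of a gene stood for it (13608 genes). limma 3.58.1 in R 4.3.3 (lmFit, eBayes, two-sided, no block) compared the groups, and exact permutation tests were two-sided. On simulated data for this comparison (13608 genes) limma recovered 71.6% of 2-fold changes and 13.4% of 1.5-fold changes. There 67 genes were changed by each of these folds and 66 by 4-fold, with noise independent between genes and arrays. In the data 810 genes were called and noise need not be independent, so the rates hold for the simulated setting only. The number of arrays limits the precision.

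The 9 genes, the lists and the tests were chosen with earlier results of these data known. Named are the 9 genes, up to 4 called genes of each B cell list (or the 2 brightest where none was called), up to 2 called markers of each other cell type, and the 6 most alike genes by each correlation; 1 gene that the rule names is not reported here. Syk, Plcg2, Vav1, Btk, Lyn, Tcf4, Bst2 and genes below background were named after their values were seen. Alternatives changed scaling, background, filters, probe choice, variance model, weights, block, source and arrays. Slide and scan could not be a block.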

Additional observations from a re-analysis of the deposited data

Results flagged for a closer look

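In 108 groups of 4 arrays examined (each probe of the 9 genes and each further gene named by the rule, in each group), 4 held an array far from the other 3; chance sets apart about 1 in 20 groups. The dimmer Pax5 probe was highest in ChAT_positive replicate 1, at -2.59 against -3.18 to -3.15. Cd22 was lowest in ChAT_positive replicate 1, at 4.08 against 4.25 on each of the others. Bcl11a was lowest in ChAT_negative replicate 3, at 0.226 against 0.377 to 0.391. Fcrl5 was highest in ChAT_positive replicate 3, at 1.83 against 1.37 to 1.43.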

How the results depend on the processing

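Of 13 alternatives that used all 8 arrays, 11 kept the calls of Pax5, Bank1, Ebf1 and Ms4a1. Without a filter on dim probes Ms4a1 was not called (limma adjusted p = 0.0530), and with the dimmer probes, an alternative chosen after seeing the data, Pax5 was not (0.0622). Leaving out 1 array kept 4 calls each time, while without both arrays numbered 3 only 1 remained. The median difference of the 9 genes was 1.06 with median scaling, 0.68 with normexp and 0.67 without both arrays numbered 3. The count of genes called higher (382) was 212 with median scaling, 98 without the filter, 577 with array weights and 21 without both arrays numbered 3, and the count called lower (428) was 119, 126, 639 and 35. Leaving out 1 array gave 94 to 305 higher and 116 to 429 lower. Of the other B cell genes, the 14 called higher became 4 with median scaling, 2 without the filter, 2 to 14 without 1 array and 0 without both arrays numbered 3; the 2 called lower became 4 with quantile normalization, 1 without the filter and 0 without both arrays numbered 3. Signs turned for Cr2 with median scaling (0.0020), with the mean of its probes (0.40) and with its dimmer probe (1.02), for Cd22 with normexp (-0.055), and for Ube2d2a (-0.021) with median scaling (0.20), normexp (0.032), the mean of its probes (0.037) and, over single arrays left out, within -0.075 to 0.012. Causes were not tested.

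Replicate numbers are array positions. Deviations of same-numbered arrays correlated at 0.539, 0.661 and 0.519 for numbers 1 to 3 and 0.0323 for number 4, which correlated best with number 3, so the numbers were not taken as pairs. With the replicate number as a block, 1002 genes were higher and 1344 lower, 6 of the 9 genes were called (Cd79a and Fcer2a in addition), and 28 other B cell genes were higher and 5 lower. A block for the combination of slide and scan could not be fitted, since each combination holds 1 group. The number of arrays limits what can be called, and dim probes such as those of Fcer2a and the dimmer Pax5 probe had the lowest intensities.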
